A study of Mus musculus with 12 samples.

Results

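RNA was measured for 34 genes that build sterols and fatty acids or control that synthesis, in mouse dendritic cells with and without CTCF, the zinc-finger protein that anchors chromatin loops and insulates domains. The genes were chosen by symbol, with earlier results of these data known. Each symbol was carried by 1 of the 55335 genes in the files, so all 34 were found. They were grouped by their place in the pathway into 8 genes of the mevalonate branch, 12 of the sterol branch, 6 that control the SREBP transcription factors and 8 of the fatty acid branch. All 34 passed the filter on low counts that left 14008 genes for testing. Bone marrow of C57BL/6 mice of both sexes, 8 to 12 weeks old, was cultured with GM-CSF for 6 days, and floating CD11c+ cells were taken as bone marrow-derived dendritic cells (BMDCs). There were 4 groups of 3 libraries, which the series design calls biological triplicates. WT cells were CreER with intact Ctcf alleles, and KO cells were CreER;CTCF fl/fl, with the floxed alleles removed by 4-OH tamoxifen (4-OHT) on the first day of culture. WTL and KOL cells were the same cells after 3 h with 100 ng/ml lipopolysaccharide (LPS), the bacterial ligand of TLR4. CreER was expressed from the Rosa26 locus in both genotypes, so Cre was not limited to dendritic cells. The sources used here do not make clear whether WT cultures also received 4-OHT, and if they did not, the agent and the deletion cannot be told apart. RNA levels only were measured, and no sterol, lipid or protein.

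The mevalonate branch turns acetyl-CoA into isoprenoid units, the sterol branch joins them into squalene and closes and trims its rings to give cholesterol, and the fatty acid branch makes, lengthens and desaturates acyl chains from the same acetyl-CoA. SREBP1 and SREBP2, encoded by Srebf1 and Srebf2, are transcription factors held in the membrane of the endoplasmic reticulum. When sterols are low, the escort protein SCAP carries them to the Golgi, where they are cut and released to switch on genes of these branches. INSIG1 and INSIG2 hold SCAP back when sterols are plentiful. In macrophages and dendritic cells, TLR stimulation is known to change sterol and fatty acid synthesis and to induce Ch25h, whose product is an oxysterol that restrains SREBP processing.

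Total expected counts were 12769773 to 16586334 per library. Ctcf itself had 975 to 1051 normalized counts in WT, 745 to 886 in WTL, 516 to 570 in KO and 526 to 563 in KOL, so its RNA was lowered and not absent in the cells labelled KO. These counts are for the whole gene, and the part between the loxP sites was not counted apart. The study reported efficient depletion of both Ctcf mRNA and CTCF protein, with CTCF binding lost or strongly reduced at all of its sites. Normalized counts are counts scaled by the effective library size of edgeR's TMM method, and they compare 1 gene between libraries. TPM, which is scaled by length, is used to compare genes and to sum lists of genes. On log2 of TPM plus 1, the median change of all genes was -0.44 in WTL against WT and -0.38 in KOL against KO. It was -0.02 in both on TMM-scaled counts, so differences between TPM sums on LPS depend on the scale. In what follows, ± after a log2 fold change is its SE, ± after a mean is its SD over 3 libraries, and libraries are named by group and replicate number. The 3 values given for a group are the normalized counts of replicates 1 to 3. A call is said not to be made without a library where leaving out that library alone took the adjusted p to 0.05 or above. Counts in rRNA genes were 4.65% of the total in WTL replicate 2 and 0.134 to 0.636% in each other library. The 10 dendritic and myeloid markers summed to 12581 to 13230 TPM in WT, 11169 to 14719 in WTL, 9401 to 9710 in KO and 11210 to 15529 in KOL. Of these, 2 were higher and 3 lower in KO than in WT, and 2 higher and 5 lower in KOL than in WTL. Of all genes tested, 22.2% were higher and 22.4% lower in KO than in WT. The shares were 21.4% and 23.3% in KOL against WTL. The 4 macrophage markers summed to 116 to 127 TPM in WT, 65.8 to 112 in WTL, 63.6 to 70.5 in KO and 54.6 to 99.8 in KOL, with 2 higher and 2 lower in KO than in WT. Markers of mast cells, B cells, T cells, NK cells and erythroid cells summed to at most 3.02 TPM in any library. The 15 proliferation genes summed to 859 to 916 TPM in WT, 439 to 520 in WTL, 652 to 667 in KO and 453 to 498 in KOL. Of these, 12 were lower and 2 higher in KO than in WT, and 13 fell on LPS in each genotype. Over all genes tested, 30.2% fell on LPS in WT and 33.9% in KO cells. The 8 neutrophil and granulocyte precursor markers summed to 376 to 399 TPM in WT, 349 to 444 in WTL, 193 to 226 in KO and 289 to 332 in KOL. Of these, 6 of the 7 tested were lower in KO. The sums of the dendritic and myeloid, macrophage, proliferation and neutrophil precursor lists were lower in every KO library than in every WT library, and the proliferation sum was lower in every LPS-treated library than in the untreated ones. The part of these lists in the results that follow was not tested. In bulk RNA, fewer cells of a type and less RNA per cell cannot be told apart.

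The comparison of KO with WT asks how loss of CTCF changed these genes in unstimulated cells. Of the 34 genes, 27 fell, 2 rose and 5 did not pass the test (edgeR's quasi-likelihood test, Benjamini-Hochberg adjusted over all genes, threshold 0.05). Over all 14008 genes tested, 22.4% fell and 22.2% rose. The median log2 fold change was -0.67 over the 34 genes and -0.01 over all genes tested, and the 34 values ran from -1.78 for Fads2 to 0.27 for Insig2. With the study's additional fold cutoff of 1.3, 23 genes were lower and 0 higher, against 17.2% lower and 17.3% higher of all genes. In the mevalonate branch 7 of 8 genes fell, in the sterol branch 11 of 12, among the control genes 5 of 6, and in the fatty acid branch 4 of 8. The exceptions were Sc5d and Insig2, which rose (Sc5d had the other sign on the TPM scale), and Ggps1, Fasn, Acaca, Acly and Scd1, which did not pass the test.

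KOL against WTL asks the same of LPS-stimulated cells, in 6 other libraries. Here 24 genes were lower, 3 were higher and 7 did not pass, against 23.3% lower and 21.4% higher of all genes tested. The median was -0.82 over the 34 genes and -0.03 over all genes, and the values ran from -1.85 for Hsd17b7 to 0.44 for Pmvk. With the study's fold cutoff of 1.5, 19 were lower and 0 higher, where 12.5% of all genes were lower and 12.5% higher. By branch, 4 of 8 mevalonate genes were lower and 2 higher, 11 of 12 sterol genes lower, 5 of 6 control genes lower and 1 higher, and 4 of 8 fatty acid genes lower. In both comparisons 21 genes were lower, and Insig2 was higher in both. Pmvk and Idi1 were lower without LPS and higher with it, and Sc5d was higher without LPS (on the count scale) and lower with it. Acat2, Sqle, Fads1 and Elovl6 were called lower only without LPS, Fasn and Acaca were called lower only with LPS, and Ggps1, Acly and Scd1 were called in neither. No lower call in either comparison changed sign under any of the scalings tried, but some calls were lost. In KOL against WTL, those of Idi1, Lbr, Srebf1, Insig2 and Fasn were not made by limma on TPM (adjusted p 0.11 to 0.32). In KO against WT, the rises of Sc5d and Insig2 were not called by total counts or by limma (adjusted p 0.088 to 0.20), and Acly was called lower by both.

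**Figure D1:**
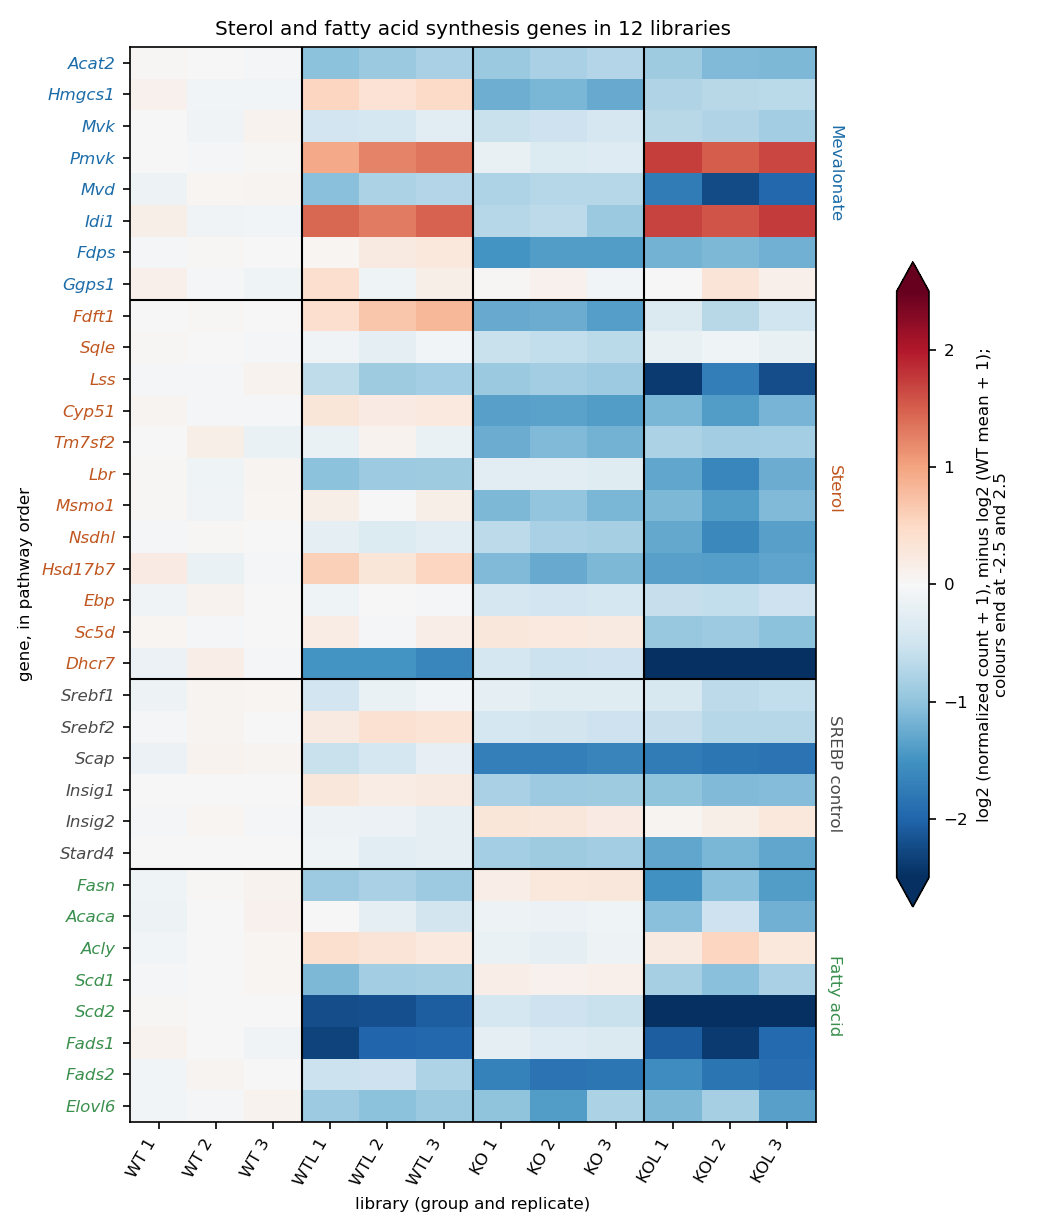
Heat map of the 34 genes (rows, in pathway order, by branch) in the 12 libraries (columns, by group and replicate). The colour is log2 of the normalized count + 1 minus the same for the WT mean, and colours end at -2.5 and 2.5, which Dhcr7 and Scd2 pass in KOL. Most rows are blue in KO and KOL, while Idi1 and Pmvk are red in WTL and KOL.

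**Figure D2:**
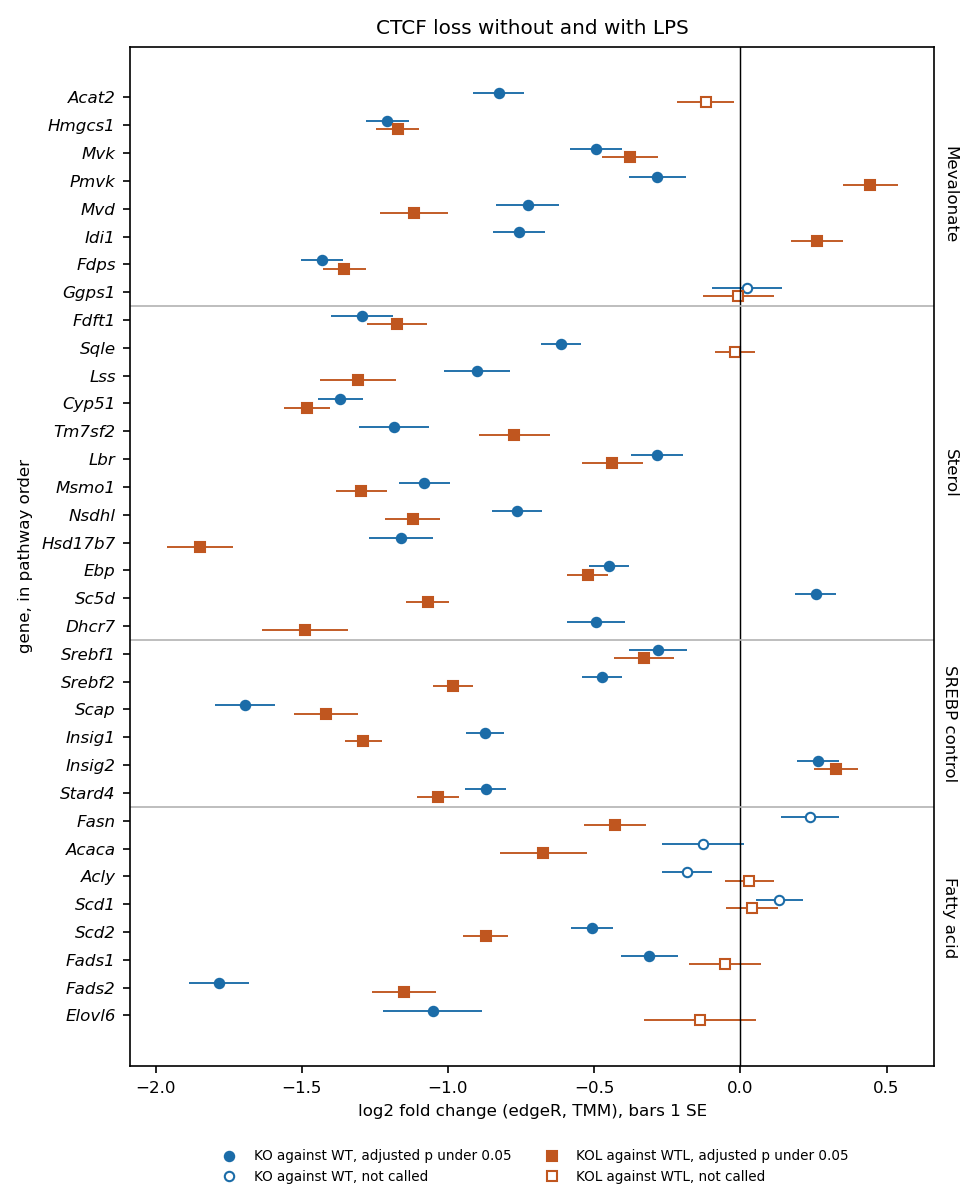
Log2 fold change on CTCF loss for each gene (vertical axis, in pathway order) without LPS (KO against WT, circles) and with LPS (KOL against WTL, squares), with bars of 1 SE from edgeR on TMM-scaled counts of 3 libraries a group. Filled symbols passed an adjusted p of 0.05. Most filled symbols lie left of 0, and Pmvk and Idi1 lie left of 0 without LPS and right of it with LPS.

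Promoter sequence was compared because most of the genes moved together. RefSeq windows of 250 bases upstream of a start (build GRCm38.p6) were given for 27 of the 34 genes, 35 windows in all, and not for Fdps, Fdft1, Sqle, Stard4, Scd1, Scd2 and Fads1. Both strands were searched for the NF-Y box CCAAT, the GC box GGGCGG, the E-box CACGTG and TCACNCCAC, a form of the sterol regulatory element (SRE) that SREBP binds. CCAAT was in 22 of the 35 windows (62.9%) and in 33.8% of the 32851 windows of all genes. GGGCGG was in 25 (71.4%) and in 32.7% of all windows, CACGTG in 5 (14.3%) and 6.02%, and TCACNCCAC in 1 (2.86%) and 1.05%. The windows of all genes were not limited to the genes tested here, so these shares do not show whether other expressed genes differ. Some genes have several windows, and a match is only a description of the letters. The single TCACNCCAC was in the window of Hmgcs1, beside 3 CCAAT boxes, and Mvk had the most CCAAT boxes, with 5.

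The windows of 5 genes follow, 5′ to 3′ on the strand of the gene, with CCAAT boxes (ATTGG on the other strand) and the SRE in capitals and all other bases in lower case. They were chosen after the values were seen, to set genes that fell with CTCF loss (Hmgcs1, Mvd, Insig1) beside one that rose (Insig2) and one that was not called in KO (Fasn).
Hmgcs1: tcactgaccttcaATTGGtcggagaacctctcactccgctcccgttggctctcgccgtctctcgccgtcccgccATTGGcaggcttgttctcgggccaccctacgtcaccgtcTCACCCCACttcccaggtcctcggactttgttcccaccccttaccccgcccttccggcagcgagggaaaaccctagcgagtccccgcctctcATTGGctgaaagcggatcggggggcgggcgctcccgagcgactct
Mvd: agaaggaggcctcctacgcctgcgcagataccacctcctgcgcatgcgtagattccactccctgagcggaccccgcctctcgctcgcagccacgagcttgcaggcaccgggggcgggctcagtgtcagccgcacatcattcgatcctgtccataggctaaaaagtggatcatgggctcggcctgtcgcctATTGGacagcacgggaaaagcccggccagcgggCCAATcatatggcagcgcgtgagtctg
Fasn: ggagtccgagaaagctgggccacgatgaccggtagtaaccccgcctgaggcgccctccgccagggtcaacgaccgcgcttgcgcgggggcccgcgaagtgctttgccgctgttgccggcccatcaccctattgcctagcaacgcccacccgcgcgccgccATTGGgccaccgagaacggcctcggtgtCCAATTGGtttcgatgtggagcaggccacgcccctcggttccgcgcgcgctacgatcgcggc
Insig1: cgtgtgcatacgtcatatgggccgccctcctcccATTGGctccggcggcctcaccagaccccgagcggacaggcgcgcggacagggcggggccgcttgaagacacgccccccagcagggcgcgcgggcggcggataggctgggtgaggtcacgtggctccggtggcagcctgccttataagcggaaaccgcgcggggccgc
Insig2: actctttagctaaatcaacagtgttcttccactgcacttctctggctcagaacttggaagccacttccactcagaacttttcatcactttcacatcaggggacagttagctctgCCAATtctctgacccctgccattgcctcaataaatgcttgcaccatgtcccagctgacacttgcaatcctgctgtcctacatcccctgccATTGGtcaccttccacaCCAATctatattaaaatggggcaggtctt
The Hmgcs1 window is at chr13:119690101-119690350 (plus strand), that of Mvd at chr8:122443423-122443672 (minus strand), that of Fasn at chr11:120824548-120824797 (minus strand), that of Insig1, cut to the 201 bases outside annotated exons, at chr5:28071162-28071362 (plus strand), and that of Insig2, the most upstream of its windows, at chr1:121332590-121332839 (minus strand). Mvd had 2 CCAAT boxes, Fasn 3, of which a pair overlaps on opposite strands, Insig1 1 and this Insig2 window 3. Each window shown had to hold a CCAAT box, so its presence in genes that fell, rose or were not called was fixed beforehand. The other Insig2 windows had 0 CCAAT boxes, and which of its starts these cells used was not tested.

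In the mevalonate branch, the summed level of the 8 genes was 643 to 693 TPM in WT, 650 to 759 in WTL, 340 to 362 in KO and 612 to 727 in KOL. The KO libraries stood apart from all others, whereas the KOL libraries overlapped with the WTL libraries. Idi1 and Pmvk, which ranked 1 and 2 of the 34 genes in KOL, weighed most in the KOL sum, so the overlap does not describe each gene. In KOL against WTL, 4 of the 8 genes were called lower, 2 (Idi1 and Pmvk) higher and 2 were not called. Mean levels in WTL and KOL were 100.34 and 43.88 TPM for Hmgcs1, and 113.22 and 44.04 TPM for Fdps. Idi1, the isomerase that interconverts the isoprenoid building blocks, had the highest level of the 34 genes in every group, with 195 ± 18 TPM (SD, n = 3) in WT, 325 ± 51.4 in WTL, 112 ± 9.12 in KO and 372 ± 67.5 in KOL. Pmvk, which adds the second phosphate to mevalonate, ranked 10 of 34 in WT and 2 in WTL and KOL, with 74.9 ± 0.601, 117 ± 15.9, 56.6 ± 2.81 and 158 ± 14.3 TPM in WT, WTL, KO and KOL. The other levels in WT were 143 ± 2.03 TPM for Fdps, 107 ± 9.05 for Hmgcs1, 88.4 ± 4.87 for Mvd, 20.9 ± 1.08 for Mvk, 18.9 ± 0.727 for Acat2 and 15.3 ± 1.3 for Ggps1.

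Idi1 had 3628, 3102 and 3152 in WT, 8899.8, 8127 and 9188 in WTL, 2005, 2103 and 1734 in KO and 10576, 9845 and 11009 in KOL (normalized counts, replicates 1 to 3). The groups did not overlap within either genotype, and KOL libraries were all above the WTL libraries although KO libraries were all below the WT libraries. Against WT, KO was at 59.1% (log2 fold change -0.76 ± 0.09, edgeR adjusted p = 8.1e-06), while KOL was at 119.9% of WTL (log2 fold change 0.26 ± 0.09, edgeR adjusted p = 0.025). LPS raised Idi1 to 265% of its untreated mean in WT cells (log2 fold change 1.41 ± 0.09, edgeR adjusted p = 5.7e-09) and to 538% in KO cells (log2 fold change 2.43 ± 0.09, edgeR adjusted p = 1.9e-11). The difference between these responses, tested as the interaction, was 1.02 ± 0.12 on the log2 scale (edgeR adjusted p = 8.7e-05). The higher level in KOL than in WTL was not called without WTL 2, KOL 1 or KOL 3 (log2 fold change 0.21 to 0.26, edgeR adjusted p 0.0614 to 0.113).

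Pmvk followed a like course, with 738, 729.6 and 753 in WT, 1435, 1761 and 1879.8 in WTL, 649, 582 and 592 in KO and 2449, 2113 and 2351 in KOL. WTL replicate 1 was the lowest of the WTL libraries, and all KOL libraries were above all WTL libraries. LPS raised it to 229% in WT cells (log2 fold change 1.19 ± 0.10, edgeR adjusted p = 8.2e-08) and to 379% in KO cells (log2 fold change 1.92 ± 0.10, edgeR adjusted p = 4.5e-10). The interaction was 0.73 ± 0.14 (edgeR adjusted p = 0.0021). CTCF loss lowered it without LPS (log2 fold change -0.28 ± 0.10, edgeR adjusted p = 0.029) and raised it with LPS (log2 fold change 0.44 ± 0.09, edgeR adjusted p = 0.0015). The first call was not made without WT 3, KO 2 or KO 3 (log2 fold change -0.31 to -0.25, edgeR adjusted p 0.0518 to 0.103).

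The largest changes of Fdps and Hmgcs1 were between the genotypes. Fdps, which makes farnesyl pyrophosphate, had 1521, 1576 and 1529.8 in WT, 1595, 1804 and 1849 in WTL, 546, 586 and 585 in KO and 682, 706 and 666 in KOL. The KO and KOL libraries were all below the WT and WTL libraries. Its mean in KO was 37.1% of that in WT (log2 fold change -1.43 ± 0.07, edgeR adjusted p = 1.4e-09), and in KOL 39.1% of that in WTL (log2 fold change -1.35 ± 0.07, edgeR adjusted p = 3.1e-09). Hmgcs1, which makes HMG-CoA, had 3147 ± 229 normalized counts in WT, 4348 ± 268 in WTL, 1363 ± 52.1 in KO and 1929 ± 57.1 in KOL (SD, n = 3). It was at 43.3% without LPS (log2 fold change -1.21 ± 0.07, edgeR adjusted p = 1e-08) and 44.4% with LPS (log2 fold change -1.17 ± 0.07, edgeR adjusted p = 1.5e-08), and the interaction of 0.04 ± 0.10 was not called (edgeR adjusted p = 0.86). On TMM-scaled counts LPS raised Hmgcs1 by 0.47 in WT and 0.50 in KO cells and Fdps by 0.18 and 0.26 (log2), but all of these values took the other sign in TPM. The Fdps rise in WT cells was also not called without WT 1, WT 2, WT 3, WTL 2 or WTL 3 (log2 fold change 0.09 to 0.16, edgeR adjusted p 0.107 to 0.344).

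Mvd, which releases isopentenyl pyrophosphate, fell in all 4 comparisons, with 1291, 1473 and 1479.7 in WT, 686, 821 and 845 in WTL, 832, 867 and 863 in KO and 423, 299.5 and 363 in KOL. WT and KOL libraries lay at the ends of the order, and WTL libraries overlapped with KO libraries. CTCF loss left 60.4% without LPS (log2 fold change -0.73 ± 0.11, edgeR adjusted p = 6.8e-05) and 46.1% with LPS (log2 fold change -1.12 ± 0.12, edgeR adjusted p = 2.4e-06). LPS left 55.5% in WT (log2 fold change -0.85 ± 0.11, edgeR adjusted p = 1e-05) and 42.4% in KO cells (log2 fold change -1.24 ± 0.11, edgeR adjusted p = 2.8e-07). The interaction was -0.39 ± 0.16 (edgeR adjusted p = 0.11), and it was called without WTL 1 or KOL 1 (log2 fold change -0.51 to -0.47, edgeR adjusted p 0.0379 to 0.04). Acat2, the cytosolic thiolase that opens the branch, had 396, 387 and 382 in WT, 190.2, 203 and 222 in WTL, 204, 219.9 and 233 in KO and 209, 181 and 177 in KOL. WT libraries stood above the rest, which lay close together. It fell with CTCF loss (log2 fold change -0.83 ± 0.09, edgeR adjusted p = 2.6e-06) and with LPS in WT cells (log2 fold change -0.92 ± 0.09, edgeR adjusted p = 6e-07). Neither KOL against KO (-0.21, edgeR adjusted p = 0.059) nor KOL against WTL (-0.12, edgeR adjusted p = 0.34) was called, and the interaction was 0.71 ± 0.13 (edgeR adjusted p = 0.0019). The KOL against KO value was called without KO 1 or KOL 1 (log2 fold change -0.29 to -0.26, edgeR adjusted p 0.0223 to 0.0414).

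Mvk, the kinase that first phosphorylates mevalonate, had 264 ± 16 normalized counts in WT, 201 ± 14.3 in WTL, 188 ± 9.39 in KO and 155 ± 8.75 in KOL. It was called lower in all 4 comparisons (log2 fold changes -0.49 for KO against WT, -0.38 for KOL against WTL, -0.39 for WTL against WT and -0.28 for KOL against KO). The last of these was not called without KO 3 or KOL 3 (log2 fold change -0.24 to -0.23, edgeR adjusted p 0.068 to 0.0696). Ggps1, which makes geranylgeranyl pyrophosphate for protein prenylation, had 350.4 ± 30.5, 395 ± 71.8, 356 ± 22.4 and 392 ± 41.8 normalized counts in WT, WTL, KO and KOL, and no comparison was called. Its groups overlapped in every comparison.

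The sterol branch summed to 424 to 427 TPM in WT, 268 to 315 in WTL, 230 to 239 in KO and 146 to 159 in KOL, with no overlap between any pair of groups on this scale. On TMM-scaled counts the median log2 fold change of the 12 genes on LPS was -0.06 in WT and -0.16 in KO cells. The highest levels in WT were those of Ebp, Msmo1 and Cyp51, and the lowest that of Hsd17b7. Cyp51, the lanosterol demethylase, had 2213, 2051 and 2071 in WT, 2614, 2422 and 2510.3 in WTL, 825, 832 and 797 in KO and 955, 799 and 945 in KOL (normalized counts). All KO and KOL libraries were below all WT and WTL libraries. KO was at 38.7% of WT (log2 fold change -1.37 ± 0.08, edgeR adjusted p = 4.4e-09) and KOL at 35.8% of WTL (log2 fold change -1.48 ± 0.08, edgeR adjusted p = 2.6e-09). On LPS it was called higher in WT cells on TMM-scaled counts (0.25, edgeR adjusted p = 0.0098) and lower in TPM. The call was not made without WT 1, WT 2 or WT 3 (log2 fold change 0.16 to 0.21, edgeR adjusted p 0.0598 to 0.162). In KO cells the LPS value of 0.14 was not called (edgeR adjusted p = 0.13), it was called without KOL 2 (log2 fold change 0.21, edgeR adjusted p 0.0135), and it took the other sign in TPM.

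Fdft1, squalene synthase, had 933, 956 and 933 in WT, 1266, 1513 and 1675 in WTL, 390.3, 397 and 364 in KO and 732, 579 and 663 in KOL. The libraries of each genotype rose together on LPS, and KO and KOL libraries were all below WT libraries. CTCF loss left 40.8% without LPS (log2 fold change -1.29 ± 0.10, edgeR adjusted p = 1.8e-07) and 44.3% with LPS (log2 fold change -1.17 ± 0.10, edgeR adjusted p = 4.3e-07). LPS raised it to 158% in WT (log2 fold change 0.66 ± 0.10, edgeR adjusted p = 5.4e-05) and 172% in KO cells (log2 fold change 0.78 ± 0.11, edgeR adjusted p = 1.6e-05). Neither rise was called by limma on TPM, at 0.0938 to 0.23 on the log2 scale, nor the one in WT by total counts, at 0.15 (adjusted p 0.13 to 0.52). These values are uncertain, because 774 of the 4227 exonic bases of Fdft1 overlap with Ctsb, a cathepsin gene on the opposite strand at 521 TPM in WT against 31.7 TPM for Fdft1, and it is not given whether strand was used in counting. Ctsb was higher in KO than in WT (log2 fold change 0.44 ± 0.06, edgeR adjusted p = 7.3e-05). Its values in the other comparisons are not given here, and the part of the overlap in the values of Fdft1 was not tested. Hsd17b7, a ketosteroid reductase of the demethylation steps, had 391, 304 and 328 in WT, 517, 420.3 and 499 in WTL, 159, 142 and 156 in KO and 132, 129.9 and 136 in KOL. Its WTL libraries were all above the WT libraries, and KO and KOL libraries were close together. It was at 44.6% in KO (log2 fold change -1.16 ± 0.11, edgeR adjusted p = 8.8e-07) and 27.7% in KOL (log2 fold change -1.85 ± 0.11, edgeR adjusted p = 1.2e-08), the largest fall of any of the 34 genes with LPS. The rise on LPS in WT cells (log2 fold change 0.49 ± 0.10, edgeR adjusted p = 0.00081) took the other sign with total-count scaling and in TPM. KOL against KO was not called (-0.20, edgeR adjusted p = 0.16). The interaction was -0.69 ± 0.16 (edgeR adjusted p = 0.0087, but not called by limma with a pseudocount of 1, at -0.59, adjusted p = 0.069).

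Sc5d and Dhcr7 act at the end of the branch, where Sc5d introduces the last ring double bond and Dhcr7 reduces its product to cholesterol. Sc5d had 891, 849.5 and 859 in WT, 989.9, 843 and 968 in WTL, 1059.6, 1031 and 1016 in KO and 447, 459.8 and 426 in KOL. The KO libraries were the highest and the KOL libraries the lowest of all 12. On the count scale it rose in KO (log2 fold change 0.26 ± 0.07, edgeR adjusted p = 0.0089), with the other sign in TPM (30 ± 2.13 in WT and 26.2 ± 2.09 in KO). Its mean RSEM effective length was 2767 bases in WT and 3543 in KO. That rise was also not called without WT 2 or WT 3 (log2 fold change 0.21 to 0.22, edgeR adjusted p 0.0617 to 0.07). KOL was at 47.6% of WTL (log2 fold change -1.07 ± 0.07, edgeR adjusted p = 4.3e-08) and at 42.9% of KO (log2 fold change -1.22 ± 0.07, edgeR adjusted p = 3e-09). LPS in WT cells gave 0.11, which was not called (edgeR adjusted p = 0.21). It had the other sign by upper quartiles, by total counts and in TPM. The interaction of -1.33 ± 0.10 was the largest of the 34 genes (edgeR adjusted p = 2e-06). Dhcr7 had 273, 339.6 and 298 in WT, 107, 107 and 96.8 in WTL, 224, 210.3 and 212 in KO and 40.9, 38.6 and 31 in KOL. Each group was apart from the others. LPS left 34.1% of its RNA in WT (log2 fold change -1.55 ± 0.11, edgeR adjusted p = 2.1e-08) and 17.1% in KO cells (log2 fold change -2.55 ± 0.13, edgeR adjusted p = 5.4e-10). The interaction was -0.99 ± 0.18 (edgeR adjusted p = 0.0017). By limma on log2 of TPM plus 1 that interaction was -0.30 and not called (adjusted p = 0.15). CTCF loss left 71% without LPS (log2 fold change -0.49 ± 0.10, edgeR adjusted p = 0.0011) and 35.6% with LPS (log2 fold change -1.49 ± 0.15, edgeR adjusted p = 1.4e-06).

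Sqle, squalene epoxidase, had 1347, 1321 and 1285 in WT, 1231, 1110.3 and 1249 in WTL, 895, 858 and 828 in KO and 1165, 1219 and 1162 in KOL. KO libraries were the lowest, and KOL libraries overlapped with WTL libraries. It fell in KO (log2 fold change -0.61 ± 0.07, edgeR adjusted p = 4.5e-06). KOL did not differ detectably from WTL (-0.02 ± 0.07, edgeR adjusted p = 0.85). LPS raised it in KO cells (log2 fold change 0.46 ± 0.07, edgeR adjusted p = 3.8e-05). That rise was 0.0841 by total counts and 0.00539 by limma on log2 of TPM plus 1, and was called by neither (adjusted p 0.35 to 0.96). The LPS value in WT cells was -0.14 (edgeR adjusted p = 0.091) and was called without WT 1, WT 2 or WT 3 (log2 fold change -0.23 to -0.20, edgeR adjusted p 0.0255 to 0.0425) and by upper quartiles, total counts and limma (-0.65 to -0.27). The interaction was 0.60 ± 0.10 (edgeR adjusted p = 0.00079). Lbr, the lamin B receptor, which also carries sterol reductase activity, had 423, 383 and 436 in WT, 204, 219.9 and 222 in WTL, 341, 344 and 334 in KO and 169, 133 and 174 in KOL. LPS groups were below unstimulated groups in both genotypes. CTCF loss gave -0.29 ± 0.09 without LPS (edgeR adjusted p = 0.018) and -0.44 ± 0.10 with LPS (edgeR adjusted p = 0.0033). The first was not called without WT 3, KO 1 or KO 3 (log2 fold change -0.29 to -0.27, edgeR adjusted p 0.0503 to 0.0614). LPS gave -0.94 ± 0.09 in WT and -1.09 ± 0.10 in KO cells (edgeR adjusted p = 8.1e-07 and 2.1e-07).

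Tm7sf2, the other sterol reductase of this step, fell from 167 ± 17.5 normalized counts in WT to 73.6 ± 3.91 in KO (log2 fold change -1.18) and was lower in KOL, at 92.9 ± 2.42, than in WTL, at 159 ± 16.4 (-0.77). Its rise on LPS in KO cells (0.34) took the other sign with total-count scaling and was not called without KO 1, KO 3, KOL 1 or KOL 3 (log2 fold change 0.30 to 0.35, edgeR adjusted p 0.0546 to 0.097). Tm7sf2 shares 532 exonic bases with Vps51 on the same strand, and reads there cannot be assigned with certainty. Lss, which closes squalene epoxide into lanosterol, went from 649 ± 37.5 in WT to 376 ± 35.3 in WTL, 348 ± 6.24 in KO and 152 ± 37.1 in KOL, and fell in all 4 comparisons (-0.90 and -1.31 on CTCF loss, -0.79 and -1.20 on LPS). Its interaction of -0.41 was called without KOL 2 (log2 fold change -0.61, edgeR adjusted p 0.00332). Msmo1 and Nsdhl remove methyl groups from the sterol ring. Msmo1 had 1447 ± 76.5 normalized counts in WT, 1546 ± 88.9 in WTL, 684 ± 39.6 in KO and 629 ± 67.5 in KOL, with falls of -1.08 and -1.30 on CTCF loss and no call on LPS on TMM-scaled counts, but a call as lower by total counts and limma in both genotypes. Nsdhl had 384 ± 7.93, 314 ± 11.6, 226 ± 14.4 and 144 ± 16.9 and was lower in all 4 comparisons, with values of -0.77 and -1.12 on CTCF loss. Its interaction of -0.36 was called without KOL 1 (log2 fold change -0.43, edgeR adjusted p 0.0476). Ebp, the sterol isomerase, fell on CTCF loss (-0.45 and -0.52) and was not called on LPS, with means of 722 ± 46.5, 699.8 ± 25.9, 529 ± 12.2 and 488 ± 18.1. By upper quartiles, total counts and limma on TPM it was called lower on LPS in both genotypes, with -0.65 to -0.17 in WT and -0.82 to -0.25 in KO cells.

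Of the 6 genes that control SREBP, Scap had the largest fall and Insig2 was the only one that rose with CTCF loss. Their levels summed to 241 to 250 TPM in WT, 163 to 186 in WTL, 160 to 162 in KO and 93.2 to 106 in KOL. On TMM-scaled counts the median log2 fold change of the 6 genes on LPS was -0.19 in WT and -0.19 in KO cells. Scap, the escort of the SREBPs, had 360.1, 425 and 418 in WT, 272, 296 and 348 in WTL, 122, 122 and 128 in KO and 119, 113 and 111 in KOL (normalized counts). KO and KOL libraries lay close together, far below WT and WTL libraries. KO was at 30.9% of WT (log2 fold change -1.69 ± 0.10, edgeR adjusted p = 9.6e-09) and KOL at 37.6% of WTL (log2 fold change -1.42 ± 0.11, edgeR adjusted p = 1.3e-07). LPS lowered it in WT cells (log2 fold change -0.39 ± 0.10, edgeR adjusted p = 0.0028), and KOL against KO was not called (-0.11, edgeR adjusted p = 0.41). Of its 7443 exonic bases, 985 overlap on the opposite strand with 5830462I19Rik, a transcript at 0.44 TPM in WT.

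Srebf2, whose protein mainly drives sterol genes, had 3451, 3729 and 3538 in WT, 4189, 4650.4 and 4504 in WTL, 2619, 2599 and 2501 in KO and 2404, 2174 and 2178 in KOL. WTL libraries were the highest, and KOL libraries the lowest. It was at 72% in KO (log2 fold change -0.47 ± 0.07, edgeR adjusted p = 5.6e-05) and 50.6% in KOL (log2 fold change -0.98 ± 0.07, edgeR adjusted p = 4.4e-08). LPS raised it in WT cells on TMM-scaled counts (log2 fold change 0.32 ± 0.07, edgeR adjusted p = 0.001), with the other sign by total counts and in TPM, and lowered it in KO cells (log2 fold change -0.19 ± 0.07, edgeR adjusted p = 0.023). The latter call was not made without KO 1, KO 2 or KOL 3 (log2 fold change -0.19 to -0.17, edgeR adjusted p 0.0629 to 0.0721). The interaction was -0.51 ± 0.10 (edgeR adjusted p = 0.0025). Srebf1, whose protein mainly drives fatty acid genes, had 778, 886 and 871 in WT, 607, 749.6 and 804 in WTL, 715, 686 and 685 in KO and 639, 534 and 548 in KOL. Its KO libraries were below the WT libraries by less than the range within WTL, and the KOL libraries overlapped with the WTL libraries. CTCF loss gave -0.28 ± 0.10 without LPS (edgeR adjusted p = 0.032) and -0.33 ± 0.10 with LPS (edgeR adjusted p = 0.017). LPS gave -0.23 ± 0.10 in WT (edgeR adjusted p = 0.062) and -0.28 ± 0.10 in KO cells (edgeR adjusted p = 0.026). The first was not called without WT 2, WT 3, KO 1, KO 2 or KO 3 (log2 fold change -0.30 to -0.27, edgeR adjusted p 0.0634 to 0.0936), and the second not without WTL 2, WTL 3 or KOL 3 (log2 fold change -0.30 to -0.24, edgeR adjusted p 0.0586 to 0.082). The last was not called without KO 1, KO 2, KOL 2 or KOL 3 (log2 fold change -0.29 to -0.23, edgeR adjusted p 0.0505 to 0.089). The LPS value in WT cells was called without WT 1 or WTL 3 (log2 fold change -0.36 to -0.32, edgeR adjusted p 0.0136 to 0.0207).

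Insig1, itself an SREBP target, and Insig2 moved in opposite directions on CTCF loss. Insig1 had 1303, 1317 and 1316 in WT, 1597, 1497 and 1525 in WTL, 746, 698 and 704 in KO and 655, 612 and 623 in KOL. Its KO and KOL libraries were all below the WT and WTL libraries, with no overlap. CTCF loss left 54.6% without LPS (log2 fold change -0.87 ± 0.06, edgeR adjusted p = 6.1e-08) and 40.9% with LPS (log2 fold change -1.29 ± 0.06, edgeR adjusted p = 1.8e-09). LPS raised it in WT cells on TMM-scaled counts (0.23, edgeR adjusted p = 0.0055), with the other sign by total counts and in TPM, and lowered it in KO cells (-0.19, edgeR adjusted p = 0.021). The first of these was not called without WT 1, WT 2 or WT 3 (log2 fold change 0.15 to 0.16, edgeR adjusted p 0.0945 to 0.11). The second was not called without KO 1 or KOL 3 (log2 fold change -0.17 to -0.16, edgeR adjusted p 0.0524 to 0.0868). The interaction was -0.42 ± 0.09 (edgeR adjusted p = 0.0059). Insig2 had 310.5, 329 and 309 in WT, 290.0, 286 and 270.1 in WTL, 388, 387 and 366 in KO and 332, 351 and 377 in KOL. The KO libraries were above the WT libraries and the KOL libraries above the WTL libraries. It was at 120.3% in KO (log2 fold change 0.27 ± 0.07, edgeR adjusted p = 0.0079) and 125% in KOL (log2 fold change 0.33 ± 0.08, edgeR adjusted p = 0.0028). The first was not called without WT 1 or WT 3 (log2 fold change 0.22, edgeR adjusted p 0.0597 to 0.0665). The LPS values of -0.17 in WT and -0.11 in KO cells were not called, but the value in WT cells was called without WT 1 or WT 3 (log2 fold change -0.26, edgeR adjusted p 0.0229 to 0.0251). By upper quartiles, total counts and limma on TPM both were called lower, with -0.87 to -0.30 in WT and -0.93 to -0.24 in KO cells.

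Stard4, a carrier of sterol between membranes, had 1471, 1458 and 1442 in WT, 1350.0, 1199 and 1229 in WTL, 813, 782 and 797 in KO and 590.4, 659 and 594 in KOL. Each group was apart from the others. KO was at 54.7% of WT (log2 fold change -0.87 ± 0.07, edgeR adjusted p = 1.7e-07) and KOL at 48.8% of WTL (log2 fold change -1.04 ± 0.07, edgeR adjusted p = 3.9e-08). LPS lowered it by less, with -0.21 ± 0.07 in WT (edgeR adjusted p = 0.017) and -0.38 ± 0.07 in KO cells (edgeR adjusted p = 0.00033), and the first was not called without WTL 2 (log2 fold change -0.18, edgeR adjusted p 0.0714).

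In the fatty acid branch, the 8 genes summed to 281 to 288 TPM in WT, 126 to 135 in WTL, 219 to 222 in KO and 110 to 125 in KOL. Scd2, a stearoyl-CoA desaturase, had 5071, 4955 and 4967 in WT, 1071, 1093 and 1203 in WTL, 3664, 3506 and 3388 in KO and 624, 560.4 and 657 in KOL (normalized counts). All LPS-treated libraries were below all untreated ones, and within each condition KO was below WT. LPS left 22.5% in WT (log2 fold change -2.15 ± 0.08, edgeR adjusted p = 9e-12) and 17.4% in KO cells (log2 fold change -2.52 ± 0.08, edgeR adjusted p = 1.9e-12). CTCF loss left 70.4% without LPS (log2 fold change -0.51 ± 0.07, edgeR adjusted p = 4.9e-05) and 54.7% with LPS (log2 fold change -0.87 ± 0.08, edgeR adjusted p = 4.4e-07). The interaction of -0.36 ± 0.10 (edgeR adjusted p = 0.027) was not called without WT 1, WT 2, WT 3, WTL 3, KO 1 or KO 2 (log2 fold change -0.37 to -0.29, edgeR adjusted p 0.0593 to 0.139). Its paralogue Scd1, 87.6 kb away on chromosome 19, fell on LPS (-0.93 in WT and -1.03 in KO cells) and was not called on CTCF loss (0.13 and 0.04). It had 859.8 ± 25.8 normalized counts in WT, 449.7 ± 47.5 in WTL, 943 ± 20.9 in KO and 463 ± 42.1 in KOL. Expected counts were not whole (more than 1e-06 from a whole number) in 8 libraries for Scd2 and 9 for Scd1, which shows that RSEM shared some reads with other genes.

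Fads1 and Fads2, the desaturases of polyunsaturated fatty acids, lie 81.1 kb apart on chromosome 19 and had different courses. Fads1 had 808, 749.7 and 713 in WT, 152, 191 and 195 in WTL, 637, 604 and 589 in KO and 181, 143 and 196 in KOL. Untreated libraries were far above the LPS-treated ones in both genotypes. LPS left 23.7% in WT (log2 fold change -2.07 ± 0.11, edgeR adjusted p = 8e-10) and 28.4% in KO cells (log2 fold change -1.81 ± 0.11, edgeR adjusted p = 3.3e-09). CTCF loss gave -0.31 ± 0.10 without LPS (edgeR adjusted p = 0.019) and -0.05 ± 0.12 with LPS (edgeR adjusted p = 0.76, not called). The first was not called without WT 1, KO 2 or KO 3 (log2 fold change -0.30 to -0.29, edgeR adjusted p 0.0513 to 0.0749). Fads2 had 423, 465 and 447 in WT, 307, 309 and 259 in WTL, 137, 123 and 127 in KO and 151, 125 and 117 in KOL. KO and KOL libraries overlapped and were all below the WTL libraries. It had the largest fall of the 34 genes in KO, to 29% of WT (log2 fold change -1.78 ± 0.10, edgeR adjusted p = 5.1e-09), and was at 44.9% in KOL (log2 fold change -1.15 ± 0.11, edgeR adjusted p = 9.8e-07). LPS lowered it in WT cells (log2 fold change -0.61 ± 0.10, edgeR adjusted p = 7.7e-05). The value in KO cells was 0.02 (edgeR adjusted p = 0.87), but lower and called with total-count scaling and in TPM, and the interaction was 0.63 ± 0.15 (edgeR adjusted p = 0.01).

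Fasn, fatty acid synthase, had 1483, 1624 and 1699 in WT, 848, 918 and 856 in WTL, 1809, 1914 and 1946 in KO and 562, 780.4 and 606 in KOL. KO libraries were all above the WT libraries on the count scale but overlapped with them in TPM (28.5 ± 2.69 in WT and 28.8 ± 2.16 in KO). KOL libraries were all below the WTL libraries. KO against WT did not pass the test (log2 fold change 0.24 ± 0.10, edgeR adjusted p = 0.069), and KOL was lower than WTL (log2 fold change -0.43 ± 0.11, edgeR adjusted p = 0.0043). LPS left 54.5% in WT (log2 fold change -0.87 ± 0.10, edgeR adjusted p = 4.6e-06) and 34.4% in KO cells (log2 fold change -1.54 ± 0.11, edgeR adjusted p = 1e-08). The interaction was -0.67 ± 0.15 (edgeR adjusted p = 0.0062). By limma on TPM, KOL against WTL gave -0.21 to -0.20 for Fasn and the interaction -0.23 to -0.21, and neither was called (adjusted p 0.13 to 0.36). Acaca, which makes malonyl-CoA for Fasn, had 746 ± 60.9, 642 ± 98.2, 684 ± 8.2 and 403 ± 105 normalized counts in WT, WTL, KO and KOL, and KOL was called lower than KO (log2 fold change -0.77) and than WTL (-0.67). Its interaction of -0.55 was called without WTL 3 or KOL 2 (log2 fold change -0.77 to -0.65, edgeR adjusted p 0.00172 to 0.0399). Acly, which makes cytosolic acetyl-CoA from citrate, had 3401, 3543 and 3691 in WT, 4676, 4405 and 4209 in WTL, 3146, 2978 and 3245 in KO and 4135, 5156 and 4279 in KOL. LPS-treated libraries were all above untreated ones on this scale, and the genotypes were close together. LPS raised it in WT cells (log2 fold change 0.32 ± 0.08, edgeR adjusted p = 0.0043) and in KO cells (log2 fold change 0.53 ± 0.08, edgeR adjusted p = 6.2e-05), and the value in WT cells had the other sign by total counts and in TPM. That call was not made without WT 1 or WT 2 (log2 fold change 0.21 to 0.24, edgeR adjusted p 0.0542 to 0.0785). The rise in KO cells was not called by total counts or limma (0.0666 to 0.16, adjusted p 0.091 to 0.45). Neither KO against WT (-0.18) nor KOL against WTL (0.03) was called. Elovl6, which lengthens saturated chains and had the lowest level of the 34 genes in every group, had 95.5, 98.1 and 106 in WT, 52.6, 48.7 and 52.1 in WTL, 49.3, 37.4 and 57.4 in KO and 45.2, 56.2 and 38.4 in KOL. The WT libraries stood above all others. It fell in KO (log2 fold change -1.05 ± 0.17, edgeR adjusted p = 0.00016) and on LPS in WT cells (log2 fold change -0.97 ± 0.17, edgeR adjusted p = 0.00025), and KOL against KO (-0.05) and KOL against WTL (-0.14) were not called. The interaction of 0.92 ± 0.26 (edgeR adjusted p = 0.025) was not called without WTL 2, KO 1 or KO 2 (log2 fold change 0.77 to 0.93, edgeR adjusted p 0.0521 to 0.0623).

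**Figure D3:**
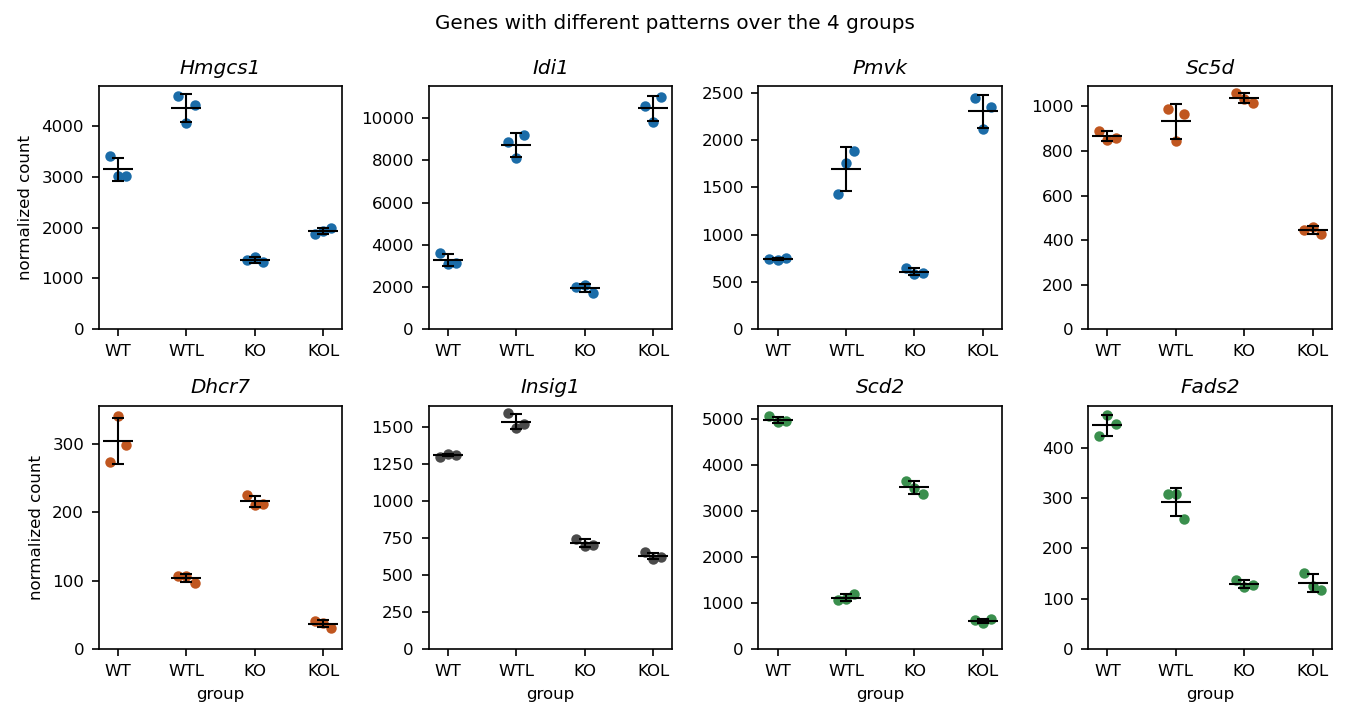
Normalized counts of 8 genes in every library (points, 3 a group), with the group mean and SD as bars and each vertical axis starting at 0. Idi1 and Pmvk are highest in KOL, Sc5d is lowest in KOL, Hmgcs1 and Insig1 separate by genotype, and Scd2 and Dhcr7 are lower in the LPS groups WTL and KOL.

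Over the 34 genes, LPS raised some mevalonate genes and lowered most fatty acid genes. In WT cells 15 of the 34 genes fell, 10 rose and 9 did not pass (WTL against WT), against 30.2% lower and 30.0% higher of all genes tested. With the study's fold cutoff of 2, 3 were lower and 2 higher, against 9.99% and 12.6%. In KO cells 16 fell, 8 rose and 10 did not pass (KOL against KO), against 33.9% lower and 33.6% higher of all genes. With the cutoff of 2, 9 were lower and 2 higher, against 13.0% and 15.1%. The median log2 fold change was -0.19 in both genotypes and -0.02 over all genes tested, so these shares were nearer to those of all genes than the shares on CTCF loss were. By branch, WTL against WT gave 4 mevalonate genes higher and 3 lower, 3 sterol genes higher and 4 lower, 2 control genes higher and 2 lower, and 1 fatty acid gene higher and 6 lower. For KOL against KO these were 4 and 2, 3 and 5, 0 and 4, and 1 and 5. Hmgcs1, Pmvk, Idi1, Fdps, Fdft1 and Acly were called higher in both genotypes, and Mvk, Mvd, Lss, Lbr, Nsdhl, Dhcr7, Stard4, Fasn, Scd1, Scd2 and Fads1 lower in both.

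The calls of rises on LPS depended on the scaling. With total counts in place of TMM, the median of all genes moved by -0.51 on the log2 scale for WTL against WT and by -0.37 for KOL against KO. Of the 10 rises in WT cells, 7 (Hmgcs1, Fdps, Cyp51, Hsd17b7, Srebf2, Insig1 and Acly) took the other sign under at least 1 scaling, and Pmvk, Idi1 and Fdft1 kept theirs under all scalings tried. Of the 8 rises in KO cells, 3 (Hmgcs1, Fdps and Tm7sf2) took the other sign, and Pmvk, Idi1, Fdft1, Sqle and Acly kept theirs. The values of Fdft1 remain uncertain under each scaling because of its overlap with Ctsb. Of the rises that kept their sign, those of Pmvk and Idi1 alone were called under every scaling tried in both genotypes. Their size depended on the scaling. By limma on log2 of TPM plus 1, Idi1 rose by 0.72 in WT and 1.71 in KO cells. Pmvk rose by 0.62 and 1.46. All 9 genes that did not pass in WT cells, and 8 of the 10 in KO cells (all but Ggps1 and Elovl6), were called lower under at least 1 scaling. All 15 falls in WT cells and all 16 falls in KO cells kept their sign under each scaling. The split of the 34 genes by total counts was 2 higher and 29 lower in WT and 3 higher and 24 lower in KO cells. The share of all genes called under this scaling is not given here. The median by total counts was -0.70 over the 34 genes and -0.53 over all genes in WT cells, and -0.56 and -0.40 in KO cells.

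**Figure D4:**
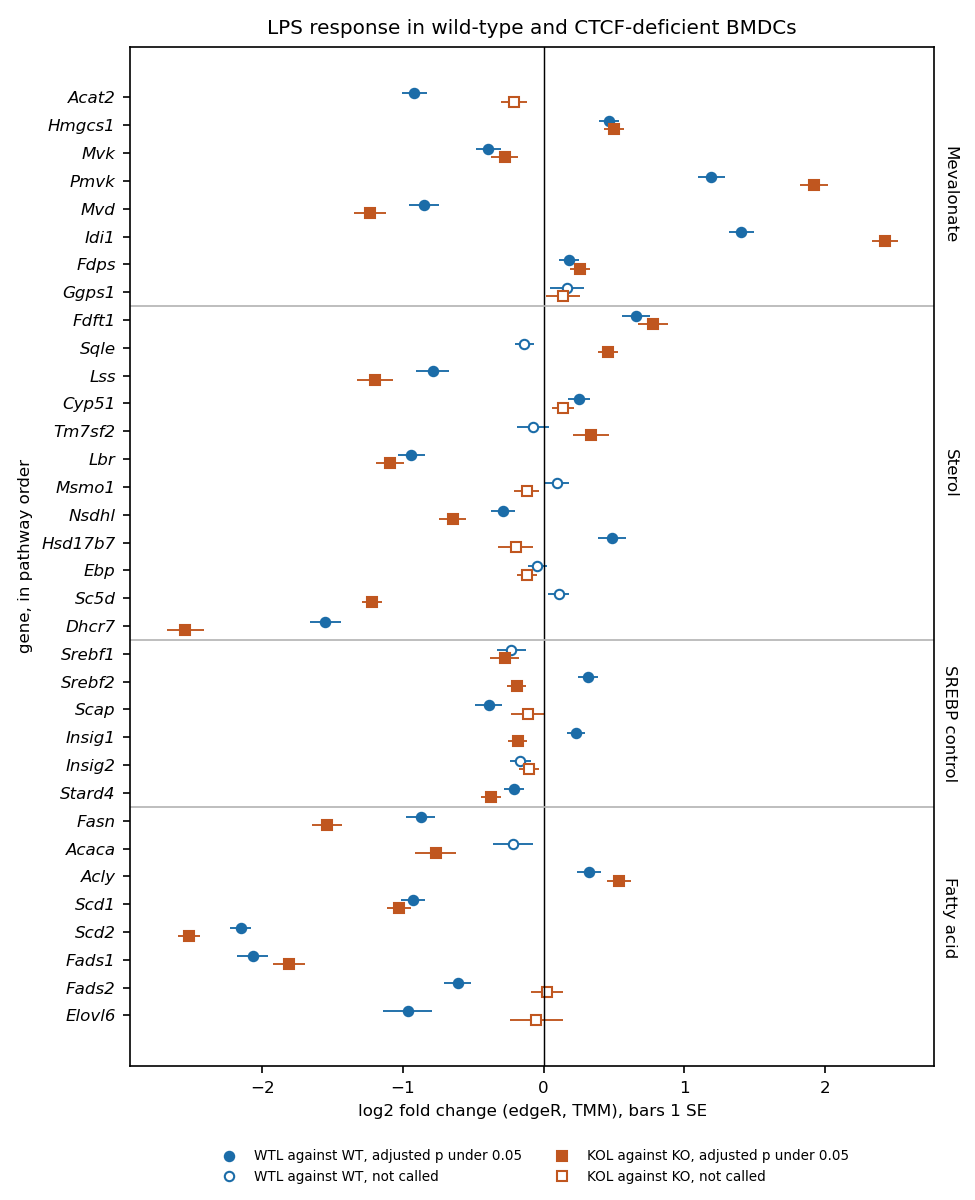
Log2 fold change on LPS for each gene (vertical axis, in pathway order) in WT cells (WTL against WT, circles) and in KO cells (KOL against KO, squares), with bars of 1 SE from edgeR on TMM-scaled counts of 3 libraries a group. Filled symbols passed an adjusted p of 0.05. Idi1 and Pmvk lie farthest right and Scd2, Fads1 and Dhcr7 farthest left in WT cells, and small rises near 0 can change sign with the scaling.

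The interaction asks whether the LPS response, or equally the effect of CTCF loss, differed between the conditions. It was called for 13 of the 34 genes, 6 higher and 7 lower, against 8.7% higher and 8.75% lower of all genes tested, with a median of -0.06 over the 34 genes. The LPS response was more positive in KO cells for Acat2, Pmvk, Idi1, Sqle, Fads2 and Elovl6 and more negative for Hsd17b7, Sc5d, Dhcr7, Srebf2, Insig1, Fasn and Scd2. None of these 13 took the other sign under any of the scalings tried, and Acat2, Pmvk, Idi1, Sqle, Sc5d and Fads2 kept their call under all of them. The other 7 lost it under at least 1, namely Hsd17b7 and Dhcr7 by limma with a pseudocount of 1, Elovl6 by limma with 0.1, Srebf2 and Fasn by limma with either, and Insig1 and Scd2 by total counts and limma (adjusted p 0.066 to 0.36). Tm7sf2 and Acly were called higher under 1 scaling each. By branch these were 3 mevalonate genes, all higher, 4 sterol genes, 1 higher and 3 lower, 2 control genes, both lower, and 4 fatty acid genes, 2 higher and 2 lower.

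Other genes of the pathway are given from lists chosen by function, also with earlier results of these data known. Their counts stand against shares of all genes tested of 22.2% higher and 22.4% lower in KO, 21.4% and 23.3% in KOL against WTL, 30.0% and 30.2% in WTL against WT, 33.6% and 33.9% in KOL against KO, and 8.7% and 8.75% in the interaction. Of 9 genes that process SREBP or degrade sterol enzymes, 1 rose and 0 fell in KO (Erlin2, 0.24 ± 0.09, edgeR adjusted p = 0.049), and this call was not made without any 1 of the 6 libraries (edgeR adjusted p 0.093 to 0.19). In KOL against WTL, 1 of these 9 was higher (Erlin1, 0.47) and 3 lower (the largest Rnf145, -0.31). On LPS, 3 rose and 3 fell in WT cells, led by Rnf139 (1.32), a ubiquitin ligase, and Erlin1 (-0.84), and 2 rose and 5 fell in KO cells, led by Rnf139 (0.96) and Mbtps1 (-0.69).

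Of 15 genes of sterol efflux, storage and oxysterols, 4 rose and 3 fell in KO and 5 were higher and 4 lower in KOL than in WTL. Ch25h, which makes an oxysterol, had normalized counts of 47.8, 51.2 and 48.4 in WT, 3049, 3156 and 2803 in WTL, 11.7, 12.5 and 10.2 in KO and 588, 527 and 635 in KOL. Each group was apart from the others, and the LPS groups were far above the untreated ones. LPS raised it in WT (log2 fold change 5.93 ± 0.10, edgeR adjusted p = 8.5e-15) and in KO cells (log2 fold change 5.66 ± 0.13, edgeR adjusted p = 9.9e-14). CTCF loss lowered it without LPS (log2 fold change -2.09 ± 0.17, edgeR adjusted p = 2.2e-07) and with LPS (log2 fold change -2.36 ± 0.08, edgeR adjusted p = 4.8e-11). Nr1h3, the oxysterol receptor LXR alpha, fell in KO (-0.77 ± 0.09) and rose on LPS in KO cells on TMM-scaled counts (0.49 ± 0.09, with the other sign under another scaling), and was not called in WTL against WT (-0.16) or KOL against WTL (-0.12). Its known targets differed. Mylip rose on CTCF loss (0.78 ± 0.08 and 0.51 ± 0.08 with LPS) and fell on LPS (-0.36 in WT and -0.62 in KO cells). Abca1, the efflux pump, was not called in KO (0.16), fell on LPS in WT cells (-0.47), had -0.17 in KO cells (not called), and was higher in KOL than in WTL (0.45). The largest rise in KO was that of Npc2 (0.84), a lysosomal sterol carrier. In this list LPS gave 2 rises and 10 falls in WT and 4 rises and 9 falls in KO cells, with the largest falls in Nceh1 (-1.71 and -1.95), a cholesteryl ester hydrolase.

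Of 10 genes that use isoprenoids, 2 rose and 2 fell in KO, and 2 were higher and 3 lower in KOL than in WTL. Rabggta, a subunit of the enzyme that prenylates Rab proteins, had normalized counts of 179, 184 and 159.9 in WT, 129, 142 and 171 in WTL, 12.6, 13.4 and 21.3 in KO and 34.4, 12.9 and 24.6 in KOL, with KO and KOL libraries far below WT and WTL libraries. Its fall was -3.46 ± 0.25 without LPS (edgeR adjusted p = 4.6e-08) and -2.61 ± 0.24 with LPS (edgeR adjusted p = 8.1e-07), whereas Coq2, of ubiquinone synthesis, rose in both (1.03 and 0.85). LPS gave 3 rises and 2 falls in WT and 2 rises and 3 falls in KO cells, led by Pdss1 in WT (1.23) and Nus1 in KO cells (1.00). Of 19 tested genes of other fatty acid and triglyceride synthesis, out of 21 listed, 4 rose and 8 fell in KO, and 5 were higher and 7 lower in KOL than in WTL. The largest fall in KO was that of Slc25a1, the mitochondrial citrate carrier (-1.25 ± 0.18), and the largest rise that of Acacb (1.71 ± 0.39), the mitochondrial acetyl-CoA carboxylase. LPS gave 5 rises and 7 falls in WT and 6 rises and 8 falls in KO cells. Hacd2, a dehydratase of chain elongation, rose by 1.58 and 2.54. Lpin1, a phosphatidate phosphatase, had normalized counts of 625, 539 and 570.4 in WT, 79.6, 80.2 and 86.1 in WTL, 678, 707 and 726 in KO and 61.3, 81.9 and 52.3 in KOL, with log2 fold changes of -2.81 in WT and -3.44 in KO cells. Over the 4 lists, 3 of 13 rises on LPS in WT cells, 5 of 14 in KO cells and 1 of 13 higher calls in KOL against WTL took the other sign under another scaling, and none of the other calls did. Interactions were called for 3 of the 9 processing genes, 5 of the 15 sterol handling genes, 1 of the 10 isoprenoid genes and 4 of the 19 fatty acid genes.

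The genes are protein-coding and lie on many chromosomes. On mm10, with the GENCODE M21 annotation, the genes that stood out above were Idi1 at chr13:8885501-8892451 (plus strand), Pmvk at chr3:89454541-89469013 (plus strand), Fdps at chr3:89093588-89101959 (minus strand), Sc5d at chr9:42251595-42264256 (minus strand), Hsd17b7 at chr1:169949535-169969241 (minus strand), Scap at chr9:110333288-110384950 (plus strand), Scd2 at chr19:44293674-44306864 (plus strand) and Fads2 at chr19:10062765-10101746 (minus strand). Fdps and Pmvk lie 352.6 kb apart on chromosome 3. Short exonic overlaps on the opposite strand join Ggps1 with Arid4b (257 bases), Cyp51 with Akap9 (166 bases) and Srebf1 with Rai1 (109 bases), and without strand in the counting reads there cannot be told apart. Expected counts were not whole (by the same tolerance of 1e-06) in all 12 libraries for Acat2, Hmgcs1, Idi1, Fdps, Fdft1 and Acaca and in 11 for Scap, so RSEM shared some of their reads with other genes or copies.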

How the data were processed

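RNA was sequenced from 12 libraries of mouse BMDCs. Per the labels and the study's methods, the authors ran Trim Galore and then STAR on mm10 (version 2.5.1 in the submitters' processing notes, another in the methods), and deposited RSEM expected counts and TPM per gene and library. The labels name rRNA depletion and the methods a poly(A) kit. The strand setting is not given in the sources used here. All sample columns were used (12769773 to 16586334 expected counts per library).

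Expected counts were rounded and tested in edgeR 4.0.16 (R 4.3.3; TMM, filterByExpr, quasi-likelihood, 1 fit of group means over the 12 libraries, Benjamini-Hochberg adjustment over 14008 genes, threshold 0.05, SE from the F statistic). DESeq2 1.42.0 and limma 3.58.1 (log2 of TPM plus 1 or 0.1, TPM of at least 1 in 3 libraries) were alternatives. On simulated counts with 200 changed genes, edgeR recovered 86.5% for KO against WT (13680 genes) and 70.0% for the interaction (13664 genes). No replicate pair was identical. Whether each came from its own animal is not stated, so p-values measure the spread between these samples. The coefficient of variation between replicates was 4.93% in WT, 2.62% in KO, 13.7% in WTL and 14.44% in KOL. The fit shared its estimate of the spread over all groups. That estimate can therefore understate the spread of the LPS-treated groups and overstate that of the untreated ones.

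The genes and lists were chosen with earlier results of these data known. Values in every library are given for the called gene with the largest and the smallest change per branch and contrast, and for Srebf1, Srebf2, Insig1 and Insig2. From each other list, the largest called rise and fall per contrast could be named, besides Ch25h, Abca1, Nr1h3 and Mylip.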

Additional observations from a re-analysis of the deposited data

Results flagged for a closer look

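Each value here was singled out because the response to LPS differed between KO and WT cells by the interaction test (edgeR, adjusted over all genes). The differences in log2 response, KO minus WT, were 0.71 for Acat2, 0.73 for Pmvk, 1.02 for Idi1, 0.60 for Sqle, 0.63 for Fads2 and 0.92 for Elovl6. They were -0.69 for Hsd17b7, -1.33 for Sc5d, -0.99 for Dhcr7, -0.51 for Srebf2, -0.42 for Insig1, -0.67 for Fasn and -0.36 for Scd2. The values of Scd2 and Elovl6 were the only ones of the 13 that lost their call when 1 library was left out, and those of Hsd17b7, Dhcr7, Srebf2, Insig1, Fasn, Scd2 and Elovl6 lost it under at least 1 other scaling. No group had enough libraries for a test of single outlying samples.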

How the results depend on the processing

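Counts that moved by over 1.5 times are given as genes of the 34. Higher in KO than in WT were 2 genes, and 0 with total counts (an alternative chosen after seeing the data), 0 with limma on TPM at either pseudocount, 0 with the fold cutoff and 4 in the 6 libraries alone. Higher in WTL than in WT were 10, and 2 with total counts, 2 with limma at either pseudocount and 2 with the cutoff, while lower were 15, and 29, 27 at either pseudocount and 3. Higher in KOL than in KO were 8, and 3 with total counts, 2 with limma at either pseudocount and 2 with the cutoff, while lower were 16, and 9 with the cutoff. Higher in KOL than in WTL were 3, and 1 with limma at either pseudocount and 0 with the cutoff. Lower in the interaction were 7, and 1 with limma at a pseudocount of 1 and 3 at 0.1. Shares of all genes called are given for edgeR on TMM-scaled counts only, so the counts under other scalings have no share beside them. With the cutoff the stricter rule itself lowers the counts. The cause of the other moves was not tested.

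Leaving out 1 library at a time gave 0 to 2 higher and 23 to 26 lower in KO (1 higher without WT replicate 1 or 2, 0 without WT replicate 3), 6 to 10 and 14 to 18 in WTL against WT (6 higher without WT replicate 1 or 2), 7 to 9 and 12 to 17 in KOL against KO, 2 to 3 and 23 to 24 in KOL against WTL, and 5 to 6 and 6 to 9 in the interaction.

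Values that changed sign, where edgeR on TMM-scaled counts or the other scaling made a call, are given as log2 fold changes. They are by total counts, then limma at pseudocounts of 1 and 0.1. Sign changes with a call on neither side are left out. For WTL against WT they were -0.0429, -0.0929 and -0.0937 for Hmgcs1, -0.33, -0.34 and -0.34 for Fdps, -0.26, -0.55 and -0.56 for Cyp51, -0.41, -0.33 and -0.33 for Msmo1, -0.0208, -0.00034 and -0.00050 for Hsd17b7, -0.19, -0.24 and -0.24 for Srebf2, -0.28, -0.33 and -0.33 for Insig1 and -0.19, -0.19 and -0.19 for Acly. By total counts they were -0.34 for Ggps1 and -0.40 for Sc5d, whose limma values were also negative but not called. For KOL against KO they were -0.12, -0.16 and -0.17 for Fdps, -0.23, -0.54 and -0.56 for Cyp51 and -0.35, -0.32 and -0.41 for Fads2, -0.0364 by total counts for Tm7sf2, and -0.0469 and -0.0479 by limma for Hmgcs1. For KO against WT they were -0.19 and -0.19 by limma for Sc5d. Over the 34 genes and 5 comparisons, 2629 of 2890 alternative values kept direction and call.

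Same-numbered libraries did not deviate together (correlations of -0.286 to 0.112 over 18 pairs, 1 of them above 0.1). Differently numbered libraries reached 0.326 (WTL 1 with KOL 2). With 3 libraries a group, such correlations cannot show whether same-numbered samples were paired. With the replicate number as a block, 3 genes were higher and 26 lower in KO than in WT, 10 and 15 in WTL against WT, 8 and 16 in KOL against KO, 3 and 24 in KOL against WTL, and 6 and 7 in the interaction, and only the call of Srebf1 in KO against WT was lost. DESeq2 lost the calls of Mvk and Tm7sf2 in KOL against KO. With 3 libraries a group, small changes such as those of Srebf1 were near the limit of detection.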
